A study of Mus musculus with 8 samples.

Results

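Nodal and activin feedback targets are here the 9 genes Lefty1, Lefty2, Nodal, Cer1, Gsc, Tdgf1, Fst, Smad7 and Pmepa1. They were taken as every non-control probe of the scanner files that carries one of these gene names, and all 9 genes were found, with 12 probes of the 55419 probes and 34541 gene names measured. The 8 single-colour mouse arrays were 1 each of 8 groups. RAX-positive and then RAX-negative cells, first after activin and then after SAG, were sorted at 10 days in vitro from K/l-EB5, a male 129/Ola embryonic stem (ES) cell line with green fluorescent protein (GFP) at Rax. All of these cultures received the Wnt inhibitor IWR-1-Endo at 5 μM at day 3. Activin A at 10 ng/ml or SAG, a Hedgehog agonist, at 100 nM followed 12 h later. The Wi control was E14Tg2A, another male 129/Ola ES line, with the inhibitor alone at the same day and no sort named, so it differs from the sorted cells in line, reporter and sort as well as in the added factor. Eye, cortex and diencephalon/hypothalamus came from Sv129s6 embryos of mixed sex at E12.5, with 3 embryos dissected. Each array carried a pool of RNA from 3 experiment sets, which leaves 1 value per group, no replicate and no p-value. In such bulk samples, fewer cells of a type and less RNA per cell cannot be told apart.

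Nodal and activin are secreted ligands of the TGF-beta family. They bind type II and type I activin receptors, Nodal with an EGF-CFC co-receptor such as the Tdgf1 product Cripto, and the activated receptors phosphorylate Smad2 and Smad3, which enter the nucleus with Smad4 and work at many targets with Foxh1. The pathway switches on its own ligand gene Nodal and its own inhibitors, among them the secreted Lefty proteins, and is best known for keeping the epiblast pluripotent and for inducing mesendoderm in the early embryo.

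The probes are shown because the reading of 1 member turns on which stretch of its transcript was measured. For each probe 30 of its 60 bases are given, 5′ to 3′, and capitals mark bases that lie in a run of 16 or more bases also present, on either strand, in probes of other genes on the array. Positions are those of the files on mm9, and the part of the transcript that a probe covers was not annotated here.
Lefty1 (chr1:182868137-182868196, plus strand, bases 31 to 60): ctgggagagctggggattctaactccctaa
Lefty2 (chr1:182828893-182828952, plus strand, bases 31 to 60): cctggcagctttgcccatgtcatttattgt
Nodal (chr10:60887790-60887849, plus strand, bases 31 to 60): tccctgcctcaagctgtggtagggaagacc
Cer1 (chr4:82527655-82527714, minus strand, bases 31 to 60): caaatacctcaatggcaaattctgaccctg
Fst (chr13:115243565-115243624, minus strand, bases 31 to 60): ggcaaaacgaaacacaacaaaataaataat
Tdgf1 probe 1 (chr9:110842722-110842781, minus strand, bases 1 to 30): CTACACAGAAACCCTGtctcggggagAAAA
Tdgf1 probe 2 (chr9:110843099-110843158, minus strand, bases 31 to 60): cctcaaaacactaactaggccttagctctg
Tdgf1 probe 3 (chr9:110842866-110842925, minus strand, bases 31 to 60): agtaaattcagagtagctgaaaacagctaa
Tdgf1 probe 1 shared such runs with probes of 7 other gene names, and the other 11 probes with 0. The probes of the paralogues Lefty1 and Lefty2 shared no run longer than 5 bases. The 2 Pmepa1 probes overlapped by 52 of 60 bases and are nearly 1 measurement. Gsc was read at chr12:105709426-105709485 (minus strand) and Pmepa1 at chr2:173049970-173050029 (minus strand).

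Levels are log2 intensities relative to the 75th percentile of their array, so 0 is a bright signal and a step of 1 is a doubling. A gene is called on where its spot was well above background by the scanner software. RAX-positive cells after activin had 79.3% of their spots well above background, against 59.5% to 75.0% elsewhere. Those cells also had 44.1% of 1348 olfactory and vomeronasal receptor genes on, against 11.7% to 24.5% elsewhere, so being on is read most widely on that array, and the part of this in the members' counts was not tested. The sort marker Rax was at 5.46 and 2.31 in RAX-positive and RAX-negative cells treated with activin and at 5.49 and 3.09 after SAG, against -4.07 in the Wi control, as the gates are labelled. All listed markers were on in the tissue of their name, but eye-field genes were 8 of 8 on in each of the 3 tissues, so the levels and not the on calls separate them. The median level in eye, cortex and diencephalon/hypothalamus was 6.38, -6.10 and -4.73 for 4 lens genes, -4.42, 3.77 and -1.25 for 5 cortex genes, and -7.18, -6.19 and 0.25 for 6 genes of diencephalon and hypothalamus.

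With the brightest probe of each gene, 9 of 9 members were on in RAX-positive cells after activin, as in RAX-negative cells after activin and the Wi control. After SAG, 7 of 9 were on in RAX-positive cells and 8 of 9 in RAX-negative cells, and 8 of 9 in each tissue. For Tdgf1 the count rests on probe 1. Probes 2 and 3 of that gene were not well above background in RAX-positive cells after activin. Cer1 was on in 3 of 8 arrays, those of RAX-positive and RAX-negative cells after activin and of the Wi control. Of the 9 members, 6 had their highest level in RAX-negative cells after activin, 2 (Fst and Pmepa1) in RAX-positive cells after activin and 1 (Tdgf1 by probe 1) in RAX-positive cells after SAG.

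**Figure D1:**
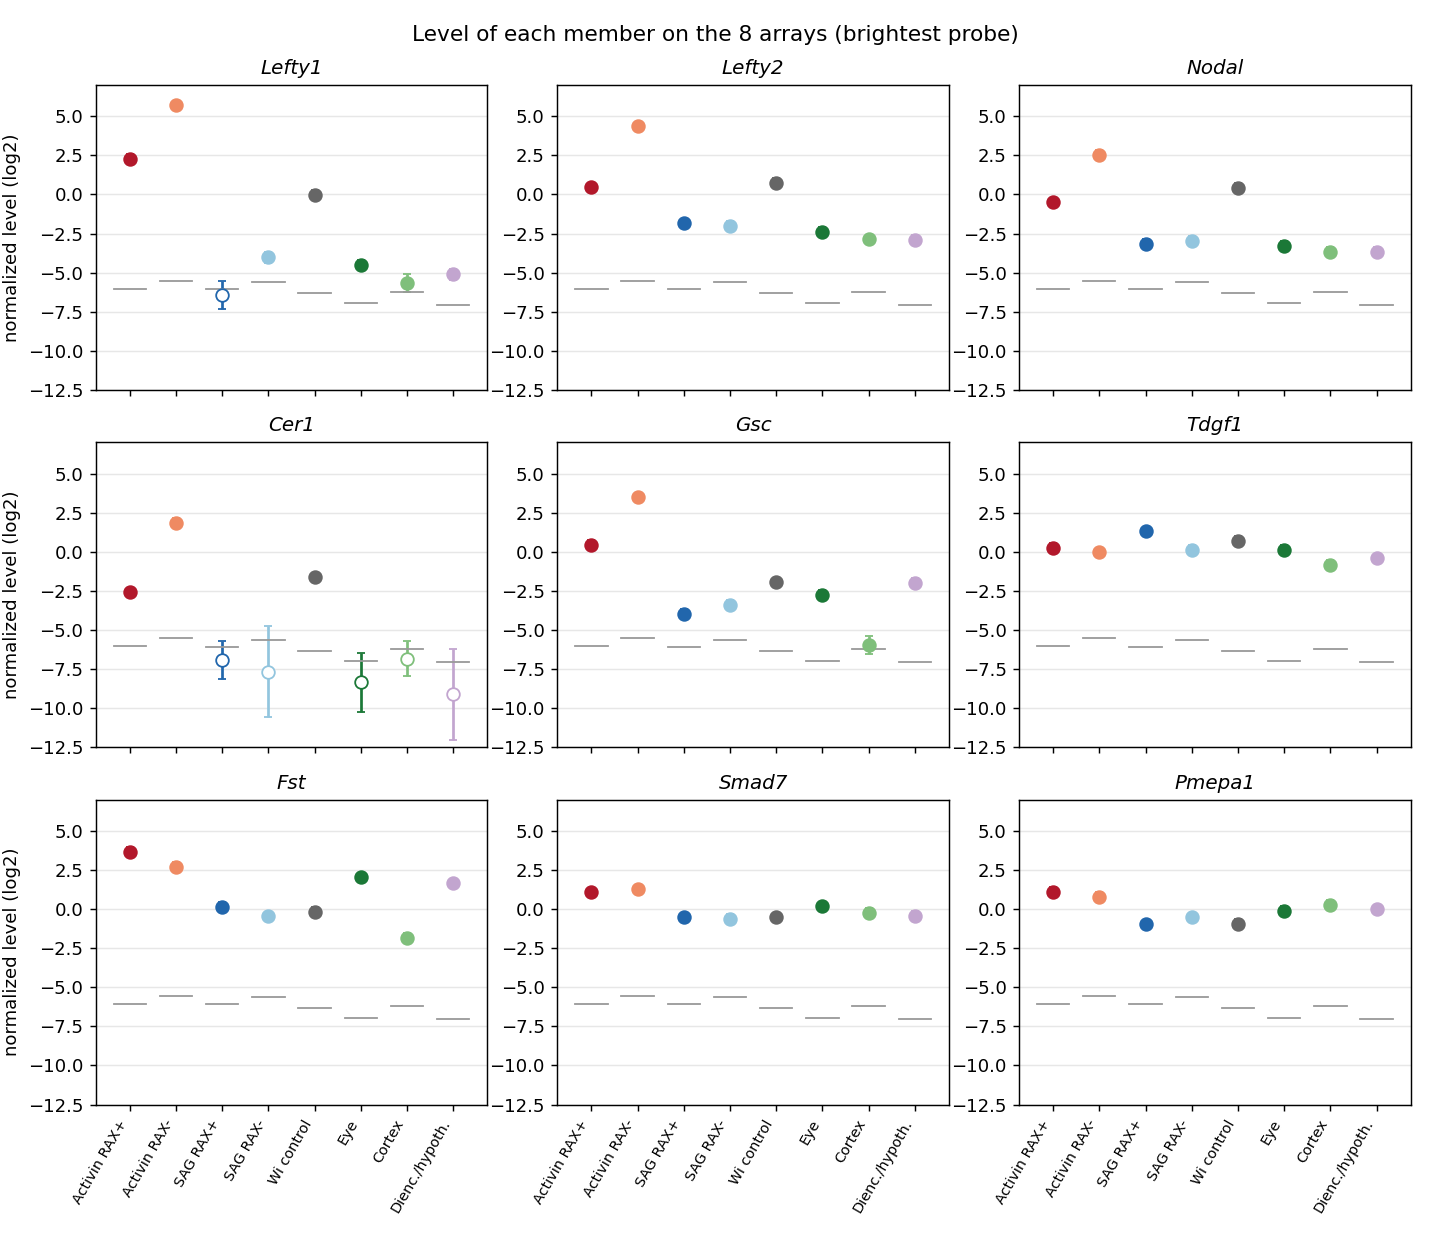
Normalized log2 level (y axis) of the brightest probe of each member on the 8 arrays (x axis), with bars of 2 times the reading error, open circles where the spot was not well above background, and a grey line at the lowest signal well above background of each array. Lefty1, Lefty2, Nodal, Cer1 and Gsc peak in RAX-negative cells after activin (5.70, 4.34, 2.53, 1.84 and 3.48), while Fst peaks in RAX-positive cells after activin (3.66).

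The secreted Nodal antagonists Lefty1 and Lefty2 were on in RAX-positive cells after activin, well below their level in the RAX-negative gate of those cultures. Lefty1 was at 2.28 and 5.70 in RAX-positive and RAX-negative cells after activin and at -6.45 and -4.02 in those gates after SAG. It was at -0.0074 in the Wi control, -4.51 in eye, -5.65 in cortex and -5.11 in diencephalon/hypothalamus. The only reading of Lefty1 not well above background was that in RAX-positive cells after SAG. Over the arrays where it was on, each neighbour in the order of Lefty1 levels differed by more than 2 times the reading error, except diencephalon/hypothalamus and cortex.

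Lefty2 was at 0.46 and 4.34 in RAX-positive and RAX-negative cells after activin, and at -1.83 and -1.999 after SAG. It was at 0.76 in the Wi control, -2.39 in eye, -2.88 in cortex and -2.90 in diencephalon/hypothalamus. RAX-positive cells after activin and the Wi control were neighbours in that order and did not differ beyond the reading error. Lefty2 was thus above 0 on 3 arrays and below -1.8 on the SAG and tissue arrays.

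The ligand gene Nodal and the gene of the secreted Nodal and BMP antagonist Cerberus, Cer1, followed a like order. Nodal was at -0.49 and 2.53 in RAX-positive and RAX-negative cells after activin, at -3.15 and -2.98 after SAG, and at 0.43 in the Wi control. The 3 tissues lay between -3.69 and -3.30, and the SAG arrays and the tissues did not differ between neighbours beyond the reading error. Cer1 was at -2.60 and 1.84 in RAX-positive and RAX-negative cells after activin and at -1.64 in the Wi control. On the other 5 arrays Cer1 was not well above background, with readings of -9.11 to -6.84.

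Gsc encodes the homeobox factor Goosecoid of the organizer and prechordal mesendoderm. It was at 0.44 and 3.48 in RAX-positive and RAX-negative cells after activin, at -4.01 and -3.39 after SAG and at -1.94 in the Wi control. It was at -2.74 in eye, -5.96 in cortex and -1.99 in diencephalon/hypothalamus. The Wi control and diencephalon/hypothalamus did not differ beyond the reading error, and cortex was the lowest of the 8.

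Fst encodes follistatin, which binds activin outside the cell. Its level was 3.66 and 2.72 in RAX-positive and RAX-negative cells after activin and 0.16 and -0.45 after SAG. It was -0.17 in the Wi control, 2.03 in eye, -1.84 in cortex and 1.65 in diencephalon/hypothalamus. Both activin arrays were above every other array, and eye and diencephalon/hypothalamus came next without differing from each other beyond the reading error.

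Smad7 encodes the intracellular inhibitor that blocks the activated type I receptor, and Pmepa1 a membrane protein that binds Smad2 and Smad3 and limits their activation. Smad7 was at 1.08 and 1.27 in RAX-positive and RAX-negative cells after activin, at -0.52 and -0.64 after SAG and at -0.52 in the Wi control, with the tissues between -0.43 and 0.17. Pmepa1 was at 1.09 and 0.77 in RAX-positive and RAX-negative cells after activin, at -0.98 and -0.52 after SAG and at -0.94 in the Wi control, with the tissues between -0.10 and 0.26. For both genes the 2 activin arrays were the highest of the 8 and did not differ from each other beyond the reading error. Their ranges over the 8 arrays, 1.91 for Smad7 and 2.07 for Pmepa1, were the smallest of the members. Gsc, on in 8 of 8 arrays, had a range of 9.44. The ranges of 12.1 for Lefty1 and 10.96 for Cer1 run down to readings not well above background, left unfloored here, so their size is uncertain.

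Tdgf1, the gene of the Nodal co-receptor Cripto, gave opposite pictures by probe. Probe 1 ranged from -0.83 in cortex to 1.31 in RAX-positive cells after SAG and was on in 8 of 8 arrays. Probe 2 was at -6.01 and 0.13 in RAX-positive and RAX-negative cells after activin, at -8.17 and -4.45 after SAG and at 0.086 in the Wi control. Probe 2 was on in 3 of 8 arrays and probe 3 in 2 of 8, the RAX-negative cells after activin (-1.63) and the Wi control (-1.49). On both of those probes the tissues were not well above background. Probe 1 is the one that holds runs shared with other genes, and the part of these runs in its signal was not tested.

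**Figure D2:**
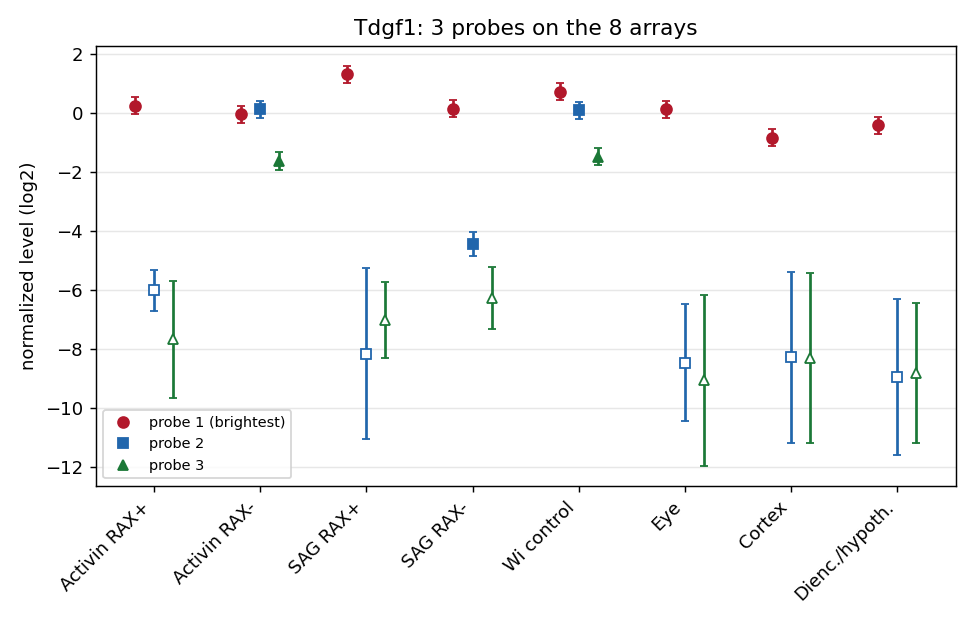
Normalized log2 level (y axis) of the 3 Tdgf1 probes on the 8 arrays (x axis), with bars of 2 times the reading error and open symbols where the spot was not well above background. Probe 1 stays between -0.83 and 1.31, while probes 2 and 3 are on together in RAX-negative cells after activin and in the Wi control alone.

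The gate after activin separated the members into a group that differed and a group that did not reach the rule of size. A member is called where the log2 difference was at least 1 in size and the brighter array was well above background. The rule sets a size and tests nothing, and the error given is the scanner software's reading error of the difference, which leaves out the spread between cultures. In RAX-positive over RAX-negative cells after activin, 5 of 9 members were lower and 0 higher, where 6.42% of 27528 detected genes were lower and 10.3% higher. Tdgf1 enters this count by probe 1, and its probes 2 and 3 were each called lower. Cer1 was 21.7-fold lower (log2 difference -4.44, SE 0.21), Lefty2 14.8-fold, Lefty1 10.68-fold, Gsc 8.21-fold and Nodal 8.12-fold. The median log2 difference was -3.02 over the members and 0.13 over all detected genes.

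Fst, Smad7 and Pmepa1 did not reach the rule between the gates after activin. Fst had a log2 difference of 0.94 (SE 0.20), higher in RAX-positive cells by 1.92-fold, and this lay beyond 2 times the reading error. Smad7 had -0.19 with an interval of 2 reading errors from -0.60 to 0.22, and Pmepa1 had 0.32 with an interval from -0.092 to 0.72. Tdgf1 had 0.29 by probe 1, while probes 2 and 3 were at least 70.5-fold and at least 21.4-fold lower in RAX-positive cells. A bound is used where 1 array was not well above background, whose level was then floored at the weakest signal on it that passed that flag. Such a bound holds for the scaling and background correction used here and can be passed under others.

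Most markers of pluripotent cells and of mesoderm and endoderm moved with that gate. By the rule of size, 9 of 10 pluripotency genes and 7 of 10 mesoderm and endoderm genes were lower in RAX-positive cells and 0 higher. Nanog, at -1.60 in RAX-positive and -2.21 in RAX-negative cells, and Cxcr4, at -1.20 and -1.63, had the opposite sign without being called. Of 10 pluripotency genes, 10 were on in RAX-positive and 10 in RAX-negative cells after activin, with median levels of -2.24 and 2.70 and ranges of -5.13 to -0.46 and -2.21 to 5.13. Pou5f1, the gene of the pluripotency factor Oct4, was at -3.59 in RAX-positive and 3.86 in RAX-negative cells. Of 10 mesoderm and endoderm genes, 8 were on in each gate, with medians of -3.78 and -0.87, and Mixl1 and Afp were not on in either. The list is not particular to those layers here, as Foxa1 was at 3.57 in diencephalon/hypothalamus against 1.84 in RAX-negative cells after activin. The Wi control had a pluripotency median of 2.27 and Pou5f1 at 1.81. Lefty1 was at -0.0074 there and 5.70 in RAX-negative cells after activin, the widest gap of the members, and Nodal at 0.43 and 2.53. The part of these cells in the members' levels was not tested. Gate and slide column cannot be told apart, with column 1 holding the RAX-positive and column 2 the RAX-negative samples.

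Between the gates after SAG, 2 members reached the rule of size. In RAX-positive over RAX-negative cells after SAG, 1 of 9 was higher (Tdgf1 by probe 1, 2.25-fold) and 1 lower (Lefty1, at least 4.14-fold), where 4.57% of 25814 detected genes were higher and 9.53% lower. With normexp background correction the Lefty1 difference was -0.82 and no longer called, and it is not counted where both arrays must be well above background. Tdgf1 by probe 2 was at least 3.09-fold lower, within 2 times its reading error. The remaining log2 differences ran from -0.62 for Gsc to 0.62 for Fst, and Cer1 was not well above background in either gate. The median was -0.03 over the 8 detected members and 0.06 over all detected genes. Whether the gate differences under the 2 factors differ from each other was not tested, since each rests on 1 array a side.

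With activin in place of SAG, 8 of 9 members were higher in RAX-positive cells. There 12.4% of 28998 detected genes were higher and 6.71% lower. Lefty1 was at least 327-fold higher, Gsc 21.8-fold, Fst 11.3-fold, Cer1 at least 11.1-fold and Nodal 6.36-fold. Lefty2 was 4.89-fold, Pmepa1 4.20-fold (4.83-fold by its other probe) and Smad7 3.05-fold higher. Tdgf1 was 2.09-fold lower by probe 1, and by probes 2 and 3 it was not well above background on either array. The median log2 difference was 2.67 over the members and 0.22 over all detected genes. With normexp the differences kept their direction and were smaller, at 48.02-fold for Lefty1, 9.64-fold for Gsc, 4.03-fold for Nodal and 2.15-fold for Cer1. With the authors' deposited values Lefty1 was 145-fold and Cer1 6.74-fold higher. Of 10 pluripotency genes 3 were higher and 1 lower in this comparison, and of 10 mesoderm and endoderm genes 3 were higher and 1 lower, and the part of these markers was not tested.

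**Figure D3:**
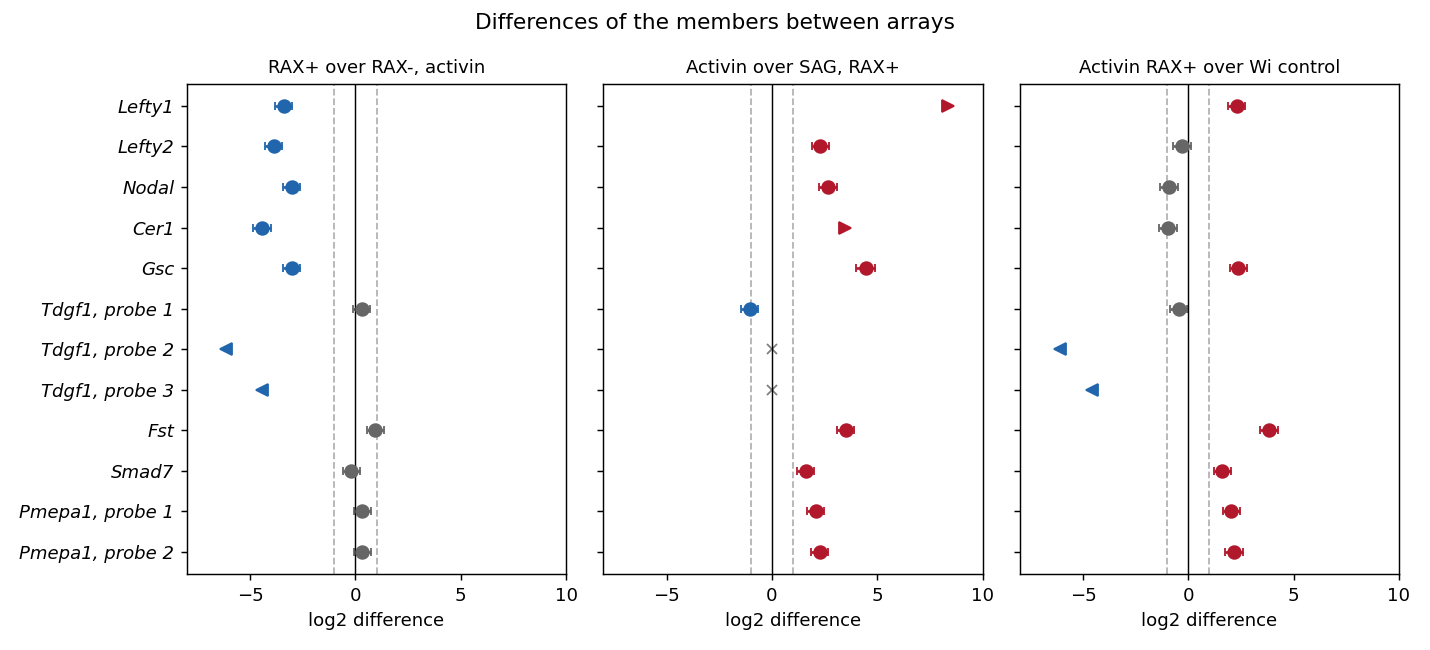
Log2 difference (x axis) of each member probe (rows) in 3 pairs of arrays that share RAX-positive cells after activin, with bars of 2 times the reading error, triangles for bounds, crosses where neither array was well above background, red for higher, blue for lower, and dashed lines at the rule of size. Lefty1, Lefty2, Nodal, Cer1 and Gsc lie left of the dashed lines between gates and right of them against SAG. Fst, Smad7 and Pmepa1 lie inside the lines between gates and right of them against SAG and against the Wi control. Lefty1 and Gsc also lie right of them against the Wi control.

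The same substitution in RAX-negative cells gave 8 of 9 members higher and 0 lower, where 12.8% of 25433 detected genes were higher and 14.6% lower. Tdgf1 enters this count by probe 1, which was not called, while its probes 2 and 3 were called higher. Lefty1 was 844-fold higher, Cer1 at least 176-fold, Gsc 117-fold, Lefty2 81.2-fold and Nodal 45.7-fold. Fst was 9.02-fold, Smad7 3.76-fold and Pmepa1 2.45-fold higher. With normexp Lefty1 was 273-fold, Gsc 53.3-fold, Cer1 27.6-fold and Nodal 23.1-fold higher, and the authors' deposited values gave 481-fold for Lefty1. Markers moved here too: 9 of 10 pluripotency genes were higher and 0 lower, with medians of 2.70 after activin and -0.95 after SAG and Pou5f1 at 3.86 and -3.83. Of 10 mesoderm and endoderm genes 5 were higher and 2 lower, with medians of -0.87 and -4.27. Not all of that list marks those layers here, as Foxa1 was highest in RAX-negative cells after SAG (3.80). The part of these markers in the members' differences was not tested. Side by side, the log2 differences of activin over SAG in RAX-positive and RAX-negative cells were 2.67 and 5.51 for Nodal, 2.29 and 6.34 for Lefty2, 3.50 and 3.17 for Fst, 1.61 and 1.91 for Smad7, and 2.07 and 1.29 for Pmepa1. Tdgf1 had -0.18 by probe 1 in RAX-negative cells and was 23.8-fold higher by probe 2 and at least 15.8-fold higher by probe 3. The added factor and the slide position cannot be told apart, with activin samples in row 1 and SAG samples in row 2.

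Against the Wi control, the members on in RAX-positive cells after activin were split. Of 9 members 5 were called, 5 of them higher and 0 lower. Of 29387 detected genes 37.9% were called in either direction and 23.9% were higher, and the rest of those called were lower. Fst was 14.3-fold higher, Gsc 5.20-fold, Lefty1 4.88-fold, Pmepa1 4.10-fold and Smad7 3.04-fold. Nodal and Cer1 had log2 differences of -0.92 and -0.96 (SE 0.20 and 0.21), below the rule of size yet beyond 2 times the reading error, and Lefty2 had -0.30, within it. Tdgf1 was at least 68.6-fold lower by probe 2 and at least 23.7-fold lower by probe 3, with -0.46 by probe 1.

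The RAX-negative cells after activin had 8 of 9 members higher than the Wi control and 0 lower, where 18.6% of 24593 detected genes were higher and 17.9% lower. Lefty1 was 52.1-fold and Gsc 42.6-fold higher, and Nodal 4.29-fold. Tdgf1 had -0.76 by probe 1, and 0.040 and -0.15 by probes 2 and 3, and by probes 2 and 3 the groups did not differ beyond the reading error.

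In both SAG populations 5 of 9 members were lower than in the Wi control and 0 higher, namely Lefty1, Lefty2, Nodal, Cer1 and Gsc. The share of all detected genes that was lower was 17.7% for RAX-positive and 14.9% for RAX-negative cells after SAG, and the share that was higher 17.6% and 16.8%. In RAX-positive cells after SAG, Lefty1 was at least 67.02-fold lower, Cer1 at least 21.6-fold, Nodal 12.02-fold, Lefty2 6.03-fold and Gsc 4.20-fold. With normexp these were 9.77-fold for Lefty1, 7.10-fold for Nodal, 3.57-fold for Cer1 and 2.24-fold for Gsc. In RAX-negative cells after SAG, Gsc had -1.45 and was not called with normexp (-0.71). In both SAG populations 9 of 10 pluripotency genes were also lower than in the Wi control and 0 higher, with medians of -2.92 and -0.95 in RAX-positive and RAX-negative cells against 2.27, and Pou5f1 at -5.04 and -3.83 against 1.81. Their part was not tested. In RAX-positive cells after SAG, Smad7, Pmepa1 and Fst had log2 differences of -0.0020, -0.036 and 0.33, within 2 times the reading error. In RAX-negative cells after SAG, Smad7 and Fst had -0.11 and -0.28, also within it. Pmepa1 had 0.43 there (0.45 by its other probe), below the rule of size yet beyond 2 times the reading error. These 4 comparisons with the Wi control share its 1 array, which was on a slide and scan of its own, so slide, cell line, sort and treatment cannot be told apart.

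In the tissues the activin-binding gene Fst and the organizer gene Gsc varied most. In eye over cortex 3 of 9 members were higher and 0 lower, where 13.5% of 25949 detected genes were higher and 7.59% lower. Fst was 14.6-fold, Gsc 9.29-fold and Lefty1 2.21-fold higher in eye. Lefty1 was not called with normexp, median or quantile scaling or the authors' deposited values, where its log2 difference was 0.46 to 0.64, and Gsc was 3.33-fold higher with normexp. In eye over diencephalon/hypothalamus 0 of 9 were called in either direction, where 10.5% of 27840 detected genes were higher and 7.96% lower. There the detected log2 differences ran from -0.75 for Gsc to 0.61 for Lefty1.

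The rest of the pathway was described with a list of 36 ligand, receptor, effector, inhibitor and target genes outside the 9. In RAX-positive over RAX-negative cells after activin, 12 were lower and 0 higher of 33 detected, where 6.42% of all detected genes were lower and 10.3% higher. The median was -0.36 over the list and 0.13 over all detected genes. The lower genes were led by the EGF-CFC co-receptor Cfc1 (26.4-fold), the mesendoderm factor genes T (15.2-fold) and Eomes (14.9-fold, and -4.08 in log2 by its other probe), and Foxh1, the Smad partner (12.7-fold). Eomes is not particular to mesendoderm here, as it was highest in cortex (2.32), then in the Wi control (1.68), against 0.75 in RAX-negative cells after activin. The target genes Lhx1 (6.06-fold) and Ctgf (3.57-fold) were lower too, as were the ligand genes Inhbb (4.60-fold), Inhba (4.12-fold) and Tgfb1 (3.60-fold). Tgfbr3 was 5.42-fold, Fstl3, another activin-binding protein gene, 3.90-fold and Tgfbr2 3.00-fold lower. The other probes of Lhx1 and Tgfbr2 had log2 differences of -0.31 and -0.094 and so disagree. Between the gates after SAG, 7 of the list were lower and 2 higher of 33 detected, against 9.53% lower and 4.57% higher over all detected genes.

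In activin over SAG in RAX-positive cells, 10 of these genes were higher and 2 lower of 34 detected, where 12.4% of all detected genes were higher and 6.71% lower. The median was -0.02 over the list and 0.22 over all detected genes. Of the 10 higher genes 5 kept the call with normexp, which lost Inhba, Tgfb1, Cfc1, Foxh1 and T, and 6 with the authors' deposited values, which lost Tgfb1, Cfc1, Tgif1 and T. Tgfbr2 (5.97-fold, with 0.58 in log2 by its other probe), Ctgf (3.73-fold), Foxh1 (3.51-fold), Tgfb1 (3.23-fold) and Inhba (2.86-fold) were higher. So were Tgfb2 (2.57-fold), the Smad repressor Skil (2.53-fold, with 0.85 in log2 by its other probe), Tgif1 (2.01-fold), and, as bounds within 2 times their reading error, Cfc1 (at least 2.07-fold) and T (at least 2.02-fold). Inhbb was 3.88-fold lower and the type I receptor gene Acvr1c at least 5.82-fold lower. The core receptor genes Acvr1b and Acvr2b and the Smad genes Smad2, Smad3 and Smad4 were not called in either comparison. In RAX-positive cells after activin they were at 1.92, 5.41, 1.58, 4.25 and 4.45. Of all 8 listed receptor and co-receptor genes, 3 were lower between the gates after activin, and 2 were higher and 1 lower against SAG. In activin over SAG in RAX-negative cells, 12 of the list were higher and 5 lower of 34 detected, where 12.8% of all detected genes were higher and 14.6% lower, so the count lower is near the background. RAX-positive cells after activin had 5 of 34 higher and 12 lower than the Wi control. Of 29387 detected genes 23.9% (7035) were higher, a larger share than in the list, and 37.9% (11141) were called in either direction. The share of all genes that was lower is thus only the part of the 37.9% that was not higher. The median log2 difference there was -0.67 over the list and 0.35 over all detected genes.

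**Figure D4:**
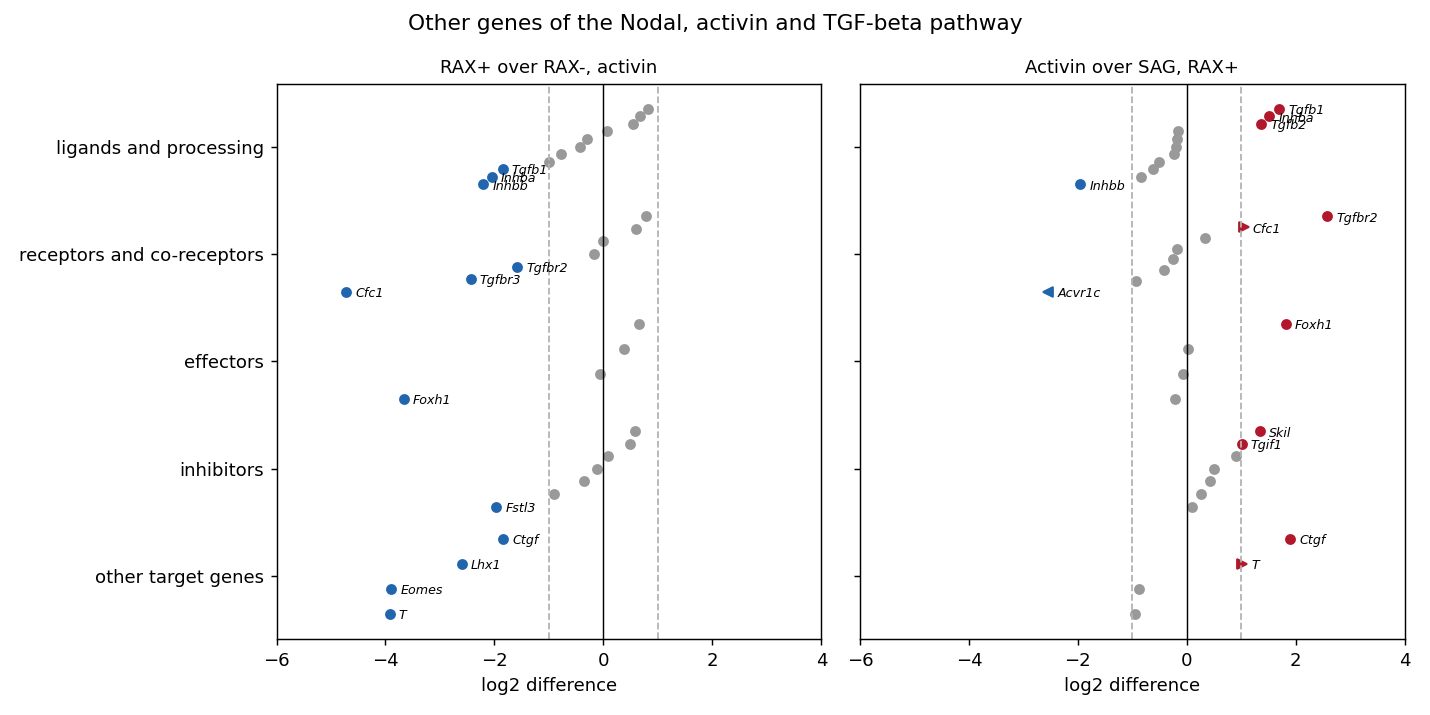
Log2 difference (x axis) of the detected genes of the 36-gene pathway list, in rows by role, for RAX-positive over RAX-negative cells after activin (left) and activin over SAG in RAX-positive cells (right), with triangles for bounds, red for higher, blue for lower and dashed lines at the rule of size. The left panel has 12 lower and 0 higher genes, with Cfc1 farthest out, and the right panel 10 higher and 2 lower.

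The genes whose levels were most like 3 of the members over the 8 arrays were listed as a description, from 6249 genes with a range of at least 2 in log2. The arrays share a few populations, so high coefficients are easily reached. For Nodal these were Cer1 (Pearson r 0.992), Zscan10 (0.988), Fgf5 (0.988), Foxh1 (0.987) and Lefty2 (0.987). For Lefty1 they were Oas1f (0.990), Tcfl5 (0.986), Npc1 (0.981), Timp4 (0.980) and Ccnb1ip1 (0.975). For Fst they were Fam160a1 (0.986), Grem1 (0.958), Irs4 (0.934), Kcnj12 (0.929) and Rab19 (0.900). Among the members, Lefty1, Lefty2, Nodal and Cer1 had coefficients of 0.954 to 0.992 with each other, and 0.396 to 0.615 with Fst. Gsc lay between, with 0.823 to 0.915 with those 4 genes and 0.807 with Fst. For all these coefficients, levels under the lowest signal well above background of their array were raised to it. Cer1 was on in 3 of 8 arrays, so its coefficients rest on few readings, and Fgf5 was not on in either SAG gate or in cortex.

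Promoter sequence was compared with motifs of the pathway's factors, since the 5 genes that were lower between gates after activin moved together. RefSeq promoters (GRCm38.p6, 250 bases before to 50 after the start) were matched for 4 members, Nodal, Cer1, Gsc and Tdgf1. Of the 5 genes, Lefty1 and Lefty2 had no promoter matched and were not searched, and Tdgf1 is not among the 5. Sequence outside this window was not searched for any member. Both strands were searched for the Foxh1 motif TGTNNATT, the Smad motif CAGAC and its palindrome GTCTAGAC, which does not contain CAGAC. Of all 32851 promoters 12.2% hold the first, 49.6% the second and 0.213% the third. Tdgf1 held TGTNNATT in 2 places on the opposite strand and CAGAC in 1 place, and Cer1 held CAGAC in 1 place, while Nodal and Gsc held none in this window. The stretches with matches are printed with the motif letters in capitals.
Tdgf1 (GRCm38.p6 chr9:110946237-110946300, minus strand): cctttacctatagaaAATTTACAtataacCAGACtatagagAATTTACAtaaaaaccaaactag
Cer1 (GRCm38.p6 chr4:82885345-82885379, minus strand): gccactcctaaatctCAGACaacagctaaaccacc
The matches are a description of these letters. Tdgf1 by probes 2 and 3 was not well above background in RAX-positive cells after activin, and Cer1 was on there.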

How the data were processed

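RNA was labelled with Cy3 and hybridized to Agilent mouse arrays, 1 per group, per the labels. Per the file headers, the authors' scanner intensity came from Agilent Feature Extraction 10.7.3.1 (9.1 per the submitters' processing notes), background-subtracted and detrended. The authors' deposited value table holds uncentred log2 values with column medians of 6.36 to 6.40, and the submitters' processing notes name limma without its role. Controls and outlier spots (136 to 307 an array) were left out, and 0 spots were saturated. The log2 signal was set against the array's 75th percentile, spots were averaged by probe, and each gene was read from its brightest probe. The 10 pairs were compared by a rule of size, checked on simulated data, with reading errors from the scanner software, and the number of arrays limits the precision. Alternatives were normexp (limma 3.58.1, R 4.3.3, offset 50), median or quantile scaling, the authors' values, the mean over probes, genes on in both arrays and, added after seeing the data, other Tdgf1 probes. The members, lists and rules were chosen with earlier results of these data known. Named were the 9 members, called genes of the 36-gene list in 2 comparisons (2 other genes planned for it are not reported here) and the 5 genes most like Lefty1, Nodal and Fst among genes on in at least 2 arrays; core receptor and Smad genes, Pou5f1, Nanog and Cxcr4 were named after their values were seen.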

Additional observations from a re-analysis of the deposited data

How the results depend on the processing

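Of the 5 members lower in RAX-positive than RAX-negative cells after activin, all were lower in the 6 planned settings run, with ranges of -3.73 to -3.19 for Lefty1, -3.34 to -2.70 for Nodal and -4.76 to -3.91 for Cer1. Of 148 comparisons of a member count with its value under another setting, 136 stayed within 1.5 times. In RAX-positive over RAX-negative cells after SAG, the count higher became 0 with the mean over all probes and 0 with the other Tdgf1 probes. The count lower became 0 with normexp background, 0 among genes on in both arrays and 2 with the other Tdgf1 probes. Of those probes, probe 3 was not well above background in either gate. In activin over SAG in RAX-positive cells, the count lower became 0 with the mean over all probes and 0 with the other Tdgf1 probes. Against the Wi control, the count lower in RAX-positive cells after activin became 2 with median scaling, 1 with the mean over all probes and 1 with the other Tdgf1 probes. For RAX-positive cells after SAG it became 3 among genes on in both arrays, since fewer genes are kept. The count of members highest in RAX-positive cells after activin became 1 with median scaling.

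Among differences past the rule of size, Tdgf1 alone changed sign. In RAX-positive over RAX-negative cells after SAG it had -0.30 with the mean over all probes and -1.04 with its other probes. Both values average in probe 2, a bound within 2 times its reading error, and probe 3, not well above background in either gate. In activin over SAG in RAX-positive cells Tdgf1 had 0.039 with its other probes, a value with both arrays near background. The change comes from the probes read. Of the 36 pathway genes, the count higher in activin over SAG in RAX-positive cells became 5 with normexp background and 6 with the authors' values, and the count lower 5 with median scaling and 1 among genes on in both arrays. For RAX-negative cells the count lower became 2 with median scaling. Against the Wi control, the count higher in RAX-positive cells after activin became 3 with quantile scaling and 3 with the authors' values. Median scaling moved the median difference of all genes on in both arrays to -0.28 between gates after activin, against 0.03 in the main setting. No paired analysis was possible because each group had 1 array, and for the same reason no array could be left out and the slide could not be fitted as a block. Readings near background limit Cer1, Lefty1 after SAG and Tdgf1, and with normexp the differences of Lefty1, Cer1, Nodal and Gsc between SAG cells and either activin cells of the same gate or the Wi control were smaller by over 1.5 times.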
